A study of Homo sapiens with 6 samples.

Results

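The 35 genes described here encode the transporters and enzymes that carry glucose to pyruvate and lactate, the PFKFB and PDK enzymes that regulate this route, and 6 genes that hypoxia-inducible factors (HIF) are known to switch on. They were taken by symbol and were matched to the Ensembl identifiers of the count files. No measured value stands in the rule, but the list was chosen with earlier results of these data known. Shares of called members therefore describe the list and are no independent comparison. All 35 were found among 65988 identifiers, and all 35 were among the 16105 genes that passed the filter on low counts. The cells were U87MG, an established human glioblastoma line, labelled as wild type. Control cells received vehicle (n = 3 libraries) and treated cells received 2 µM RSL3 (n = 3 libraries), a small molecule that inhibits the lipid peroxide-reducing enzyme GPX4 and so induces ferroptosis, an iron-dependent form of cell death. The exposure lasted 24 h, a time that the labels do not give. Both groups were grown in serum-containing medium in humidified air with added CO2, so neither was kept in hypoxia, and 1 line, 1 dose and 1 time limit what the groups can stand for.

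Glycolysis turns glucose into pyruvate in the cytosol and gains ATP and NADH on the way, and lactate dehydrogenase then turns pyruvate into lactate and restores NAD+. Hexokinases trap glucose as glucose 6-phosphate, phosphofructokinase sets the pace of the upper steps, and pyruvate dehydrogenase kinases keep pyruvate out of the mitochondrial citric acid cycle. In low oxygen HIF binds short DNA elements and raises the transcription of many of these genes, and glioblastoma is known for a high rate of glycolysis also in the presence of oxygen.

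Total counts per library ranged from 27813462 to 43306335 and scaling factors from 0.995 to 1.008, and the first principal component (39.1% of the variance) placed the control libraries at −23.93 to −17.02 and the RSL3 libraries at 14.65 to 24.43. Of 7 glioma and astroglial markers, VIM had 55021 to 69433 and CD44 18354 to 25350 normalized counts, whereas S100B and SOX2 stayed under 10 in every library. The sum of the 7 markers was 92846 to 94252 in the control and 73989 to 77488 in the RSL3 group. The sum of 3 neuronal markers was 1029 to 1116 and 1128 to 1155, that of 5 leukocyte markers 95.2 to 116 and 70.6 to 103, that of 3 endothelial markers 6.29 to 9.25 and 6.90 to 12.5, and that of 3 epithelial markers 20.9 to 25.9 and 8.05 to 26.0. Most of the neuronal sum was SYT1 (869 to 1064), with SNAP25 at 77.9 to 197 and RBFOX3 at 2.08 to 9.25. Among these markers, AIF1 and KRT20 were at 0 throughout, whereas CSF1R had 70.6 to 110, EPCAM 2.30 to 19.4 and CDH1 4.62 to 10.4 normalized counts. The part of these sums in the results below was not tested.

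RSL3 treatment changed 19 of the 35 genes. The hexokinase paralogue HKDC1, the glucose transporter gene SLC2A1, the regulator PFKFB3, the lactate exporter SLC16A3, PDK3, PFKP and NDRG1 rose, and 12 genes fell, among them LDHA, PKM, TPI1, ALDOA, PGK1 and VEGFA. A gene is called here at an adjusted p under 0.05 in edgeR's quasi-likelihood test over all genes tested. The 7 of 35 called higher compare with 12.9% of all genes tested, and the 12 of 35 called lower (34.3%) with 12.7%. In either direction it was 54.3% of the members and 25.6% of all genes. Members were not matched to all genes for level. Per kilobase of exon, GAPDH ranked 17, ALDOA 46 and PDK4 16726 of all genes, and the standard error was 0.025 for GAPDH but 0.41 for PDK4. The shares therefore also depend on how small a change could be called. DESeq2 with 2 surrogate variables, the alternative that called the fewest genes, called 6 members higher and 9 lower, beside 7.99% and 7.64% of the genes it tested. The changes were small, with log2 fold changes (RSL3 against control) between −0.38 and 0.83 among the called members. Only HKDC1 also passed a log2 fold change of 0.5, which 2.24% of all genes did upward and 2.53% downward, and no member passed it downward. The median log2 fold change was −0.08 over the 35 members and −0.004 over all genes tested. The 3 control and the 3 RSL3 values did not overlap in 22 of the 35 members, which compares with 38.6% of all genes tested, and 17 of these 22 were called. In RNA from whole cultures, a fall in a transcript and a loss of the cells that carry it cannot be told apart.

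Most of the called core enzymes fell, and most of the called genes around them rose. Of the 18 core enzymes, from the hexokinases to lactate dehydrogenase, 10 fell (55.6%), 2 rose (HKDC1 and PFKP) and 6 were not called, with a median log2 fold change of −0.09. Of the other 17 genes, which are transporters, PFKFB and PDK enzymes and HIF targets, 5 rose (29.4%), 2 fell (11.8%) and 10 were not called, with a median of 0.07. Over all genes tested, 12.9% were called higher and 12.7% lower. The share of core enzymes that rose (11.1%) and that of the other genes that fell were near these values. These medians and counts describe the lists, and the difference between the lists was not tested.

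**Figure D1:**
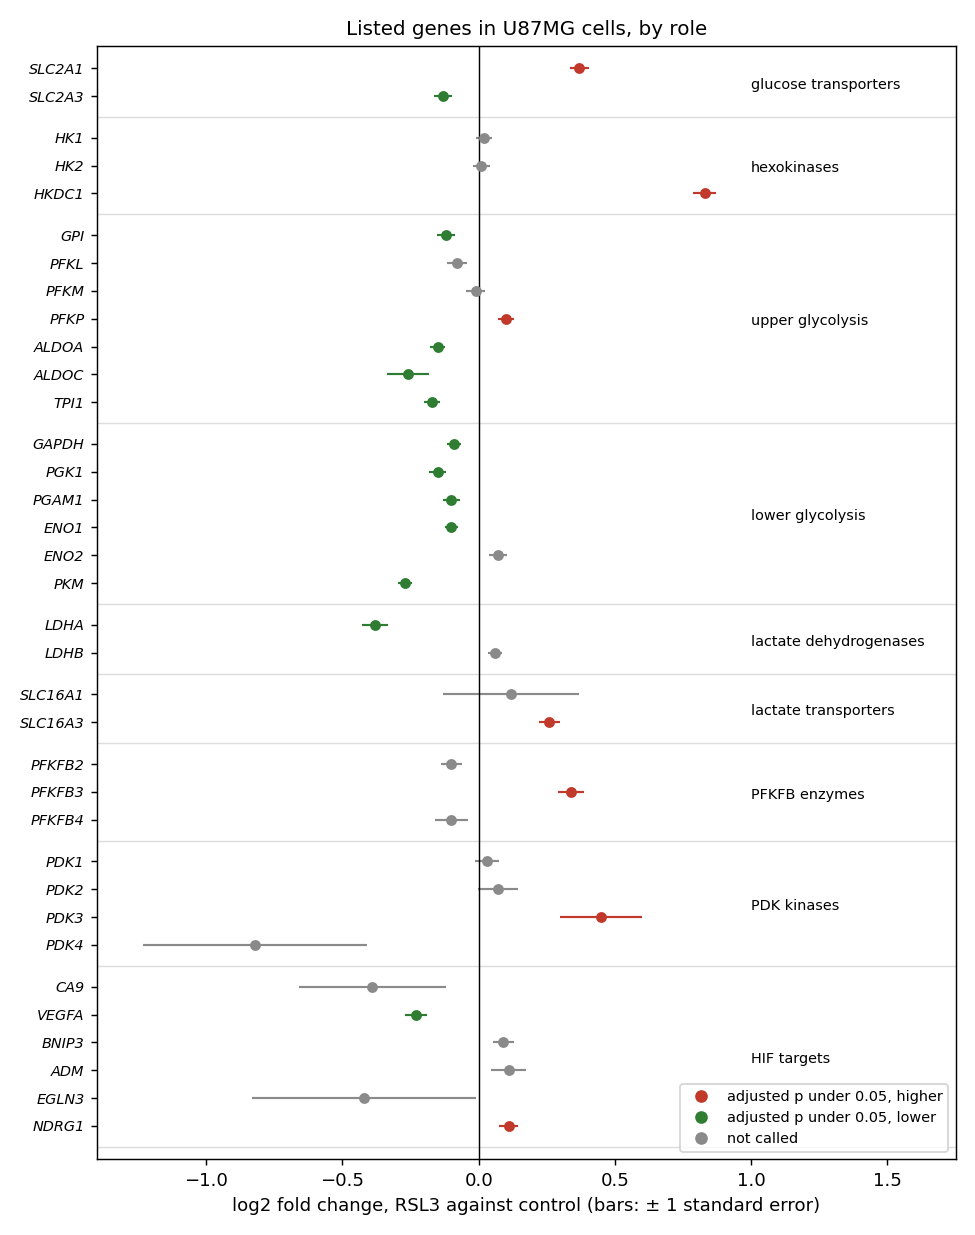
Log2 fold change of each of the 35 genes in RSL3-treated against control U87MG cells (horizontal axis), grouped by role, with bars of ± 1 standard error derived from edgeR's fold change and F statistic (n = 3 libraries a group). HKDC1 at 0.83 lies farthest to the right, the 12 genes in green lie between −0.38 and −0.09, and the wide bars of PDK4, EGLN3, CA9 and SLC16A1 belong to the genes with the lowest counts.

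Because hypoxia-linked control is a known property of many of these genes, the promoters of 5 of them are shown: HKDC1 and SLC2A1 as the members with the smallest p among those that rose, and LDHA and PGK1, which fell, and HK2, which was not called, as windows that hold the element described next. Each is the 250 bases upstream of the RefSeq start site on GRCh38.p14, written 5′ to 3′ along the gene, with the core of the HIF response element (HRE) in capitals. The core searched was ACGTG or GCGTG on both strands, so that it appears as CACGT or CACGC where it lies on the other strand, and ACGTG overlaps the E-box CACGTG. HKDC1 is chr10:69220082-69220331, plus strand, SLC2A1 chr1:42958869-42959118, minus strand, HK2 chr2:74833877-74834126, plus strand, PGK1 chrX:78103998-78104247, plus strand, and LDHA chr11:18394313-18394562, plus strand.
HKDC1: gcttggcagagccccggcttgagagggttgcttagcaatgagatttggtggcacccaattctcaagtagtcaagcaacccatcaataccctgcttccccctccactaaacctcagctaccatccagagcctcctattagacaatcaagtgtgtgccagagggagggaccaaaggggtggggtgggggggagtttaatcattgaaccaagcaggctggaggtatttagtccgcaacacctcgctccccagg
SLC2A1: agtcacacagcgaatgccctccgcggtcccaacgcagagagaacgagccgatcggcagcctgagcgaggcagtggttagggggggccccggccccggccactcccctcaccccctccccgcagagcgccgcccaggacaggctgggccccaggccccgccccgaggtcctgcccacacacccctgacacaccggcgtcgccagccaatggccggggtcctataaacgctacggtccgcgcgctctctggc
HK2: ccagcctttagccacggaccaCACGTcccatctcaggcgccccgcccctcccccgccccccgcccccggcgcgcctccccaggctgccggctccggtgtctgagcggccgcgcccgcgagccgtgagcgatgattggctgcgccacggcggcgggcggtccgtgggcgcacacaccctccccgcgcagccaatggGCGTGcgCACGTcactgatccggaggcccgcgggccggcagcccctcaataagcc
PGK1: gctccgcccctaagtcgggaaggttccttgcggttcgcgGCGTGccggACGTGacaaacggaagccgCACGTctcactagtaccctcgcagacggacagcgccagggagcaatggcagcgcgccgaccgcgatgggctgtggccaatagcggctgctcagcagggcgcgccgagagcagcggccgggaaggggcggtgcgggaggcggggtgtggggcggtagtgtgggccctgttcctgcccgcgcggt
LDHA: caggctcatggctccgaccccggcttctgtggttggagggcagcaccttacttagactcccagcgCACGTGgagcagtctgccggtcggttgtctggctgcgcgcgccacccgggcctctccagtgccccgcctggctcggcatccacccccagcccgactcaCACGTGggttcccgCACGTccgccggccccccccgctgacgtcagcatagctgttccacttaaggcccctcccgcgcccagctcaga
The HKDC1 and SLC2A1 windows hold no core, and those of HK2, PGK1 and LDHA, which were chosen for holding it, each have 3 separate stretches. This is no contrast between genes that rose and fell, since the windows of PKM and TPI1, which fell, hold no core and those of SLC16A3, PFKFB3 and PDK3, which rose, hold it. In PGK1 they lie between 211 and 183 bases before the start site, in LDHA between 185 and 73, and in HK2 between 229 and 48. A window was given for 30 of the 35 members, all but SLC2A3, SLC16A1, PFKFB2, VEGFA and NDRG1. The core was present in 20 of the 30, and in 43.2% of all 35116 windows of the same length in the table. By call, it was present in 3 of 6 members that rose, 7 of 10 that fell and 10 of 14 that were not called. A further core, TGACNNNGC of the antioxidant response element that NRF2 binds, was present in 4 of the 30 members and in 10.9% of all 35116 windows. A match is a description of letters, and a window without one says nothing of sites farther away.

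HKDC1 rose, whereas the other hexokinase genes, HK1 and HK2, did not pass the test. HKDC1 (ENSG00000156510, chromosome 10, 69220332 to 69267552, plus strand) encodes a hexokinase domain-containing protein with reported glucose-phosphorylating activity. It had 1773, 1833 and 1709 normalized counts (counts scaled to the mean library size) in control replicates 1, 2 and 3, and 3221, 3226 and 2973 in RSL3 replicates 1, 2 and 3. Each RSL3 library was above each control library, with a log2 fold change of 0.83 (SE 0.042, adjusted p = 1.92e-11 by edgeR), a 1.77-fold rise. Under the removal of any single library the value ranged from 0.80 to 0.87 on the log2 scale and remained called.

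HK1 (ENSG00000156515, chromosome 10, 69269984 to 69401884, plus strand), the hexokinase that most tissues share and that sits on mitochondria, had 14639, 14694 and 14884 normalized counts in the control and 15068, 14709 and 14982 in the RSL3 libraries. The groups overlapped, and the log2 fold change was 0.02 (SE 0.028, edgeR adjusted p = 0.711). HK2 (ENSG00000159399, chromosome 2, 74834127 to 74893359, plus strand), the inducible hexokinase of muscle and many tumours, had 23583, 25122 and 25510 in the control and 24594, 24967 and 25072 in the RSL3 libraries. These groups overlapped as well, with a log2 fold change of 0.01 (SE 0.03, edgeR adjusted p = 0.885). HKDC1 and HK1 are neighbours on the same strand, with 2431 bases between the end of the first and the start of the second, and the HK1 groups overlapped while those of HKDC1 did not.

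HKDC1 nevertheless stayed the least abundant of the 3 hexokinases. In CPM (counts scaled to the library total) per kilobase of exon, HKDC1 was at 12.3 ± 0.433 in control and 21.8 ± 1.0 in RSL3-treated cells (mean ± SD, n = 3). HK1 was at 62.9 ± 0.549 and 63.6 ± 0.799, and HK2 at 123 ± 5.05 and 123 ± 1.25. HKDC1 thus took 6.42%, 6.37% and 5.88% of the hexokinase counts per kilobase in the control libraries and 10.7%, 10.7% and 9.89% in the RSL3 libraries. The mean share went from 6.22 ± 0.299% to 10.4 ± 0.483%, a difference of 4.22 percentage points (two-sided exact permutation test over libraries, p = 0.1, the smallest that 3 against 3 allows). HK2 held 62.0% and then 59.1%, and HK1 31.8% and then 30.5%. The log2 ratio of HKDC1 to HK1 counts went from −3.06 to −2.25 and that of HKDC1 to HK2 from −3.80 to −2.99. The distance between HK1 and HK2 depends on the length used, since over both groups they stood at 63.2 and 123 per kilobase of all annotated exons but at 121 and 129 per kilobase of the main transcript.

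**Figure D2:**
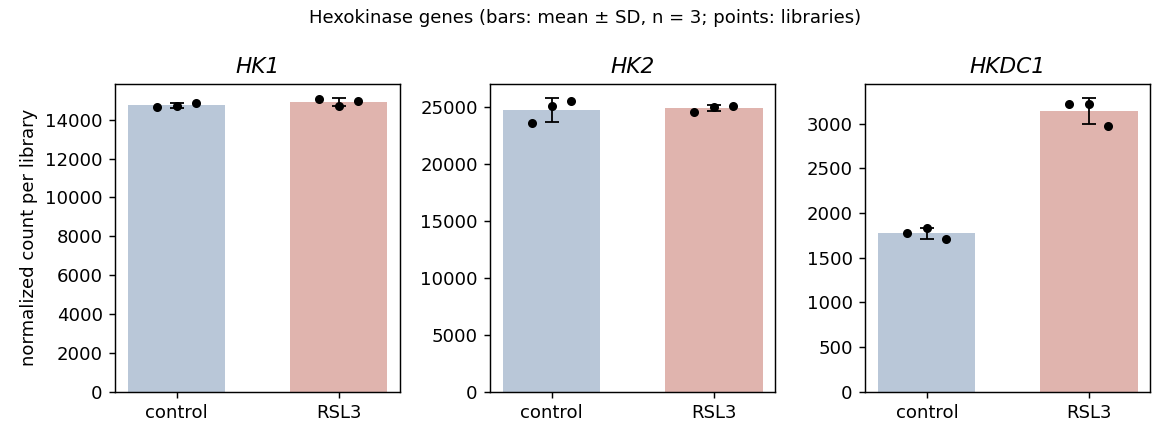
Normalized counts of HK1, HK2 and HKDC1 in control and RSL3-treated U87MG cells, with bars for the mean ± SD (n = 3), points for single libraries and a separate vertical scale for each gene. The HKDC1 points lie at 1709 to 1833 in the control and 2973 to 3226 in the RSL3 group, while the points of HK1 and of HK2 overlap between the groups.

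Glucose uptake genes moved in opposite directions. SLC2A1 (chromosome 1, 42925353 to 42958893, minus strand), which encodes the basal glucose transporter GLUT1, had 4406, 4377 and 4645 normalized counts in the control and 5952, 5614 and 5762 in the RSL3 libraries. All RSL3 values were above all control values, with a log2 fold change of 0.37 (SE 0.035, adjusted p = 7.56e-08). SLC2A3 (chromosome 12, 7919230 to 8019007, minus strand), which encodes the high-affinity transporter GLUT3, had 5851, 5998 and 6179 in the control and 5363, 5589 and 5561 in the RSL3 libraries. It fell without overlap, with a log2 fold change of −0.13 (SE 0.033, adjusted p = 0.0066), a call that was lost without RSL3 replicate 1 (−0.11, adjusted p = 0.0513). SLC2A1 held 45.2%, 44.4% and 45.2% of the counts per kilobase of this pair in the control libraries and 54.9%, 52.4% and 53.2% in the RSL3 libraries, so the more abundant of the pair was SLC2A3 in every control library and SLC2A1 in every RSL3 library.

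In upper glycolysis, which splits a 6-carbon sugar into a pair of 3-carbon sugars, 4 of 7 genes fell, 1 rose and 2 were not called. The shares were 57.1% lower and 14.3% higher, beside 12.7% and 12.9% of all genes tested. TPI1, triosephosphate isomerase, had 17061, 16374 and 17160 normalized counts in control and 14869, 14629 and 15395 in RSL3 libraries. ALDOA, the main aldolase, had 56104, 54985 and 56460 in control and 49301, 49438 and 52002 in RSL3 libraries. For GPI, which converts glucose 6-phosphate to fructose 6-phosphate, the control values were 4651, 4634 and 4443 and the RSL3 values 4200, 4167 and 4231. In all 3 genes each RSL3 library was below each control library. The log2 fold changes were −0.17 for TPI1 (SE 0.03, adjusted p = 0.000174), −0.15 for ALDOA (SE 0.027, adjusted p = 0.000204) and −0.12 for GPI (SE 0.033, adjusted p = 0.00763). The GPI call was lost in DESeq2 with 2 surrogate variables, at a log2 fold change of −0.12 (adjusted p = 0.0756). ALDOC, the brain aldolase, went from 892 ± 68.4 to 745 ± 87.3 normalized counts (mean ± SD, n = 3), with a log2 fold change of −0.26 (adjusted p = 0.0179). The ALDOC groups overlapped, and the call was lost without control replicate 3 (−0.19, adjusted p = 0.111), without RSL3 replicate 1 (−0.21, adjusted p = 0.0948) and without RSL3 replicate 2 (−0.21, adjusted p = 0.109).

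Of the 3 phosphofructokinase genes, which encode the main control point of glycolysis, 1 was called. Over all genes tested, 25.6% were called in either direction. PFKP, the platelet isoform, went from 10120 ± 201 to 10876 ± 210 normalized counts without overlap (log2 fold change 0.10, adjusted p = 0.0126). Its call was lost without control replicate 1 (0.09, adjusted p = 0.0518) and without RSL3 replicate 1 (0.09, adjusted p = 0.0862). PFKL, the liver isoform, had a log2 fold change of −0.08 (adjusted p = 0.127) and PFKM, the muscle isoform, of −0.01 (adjusted p = 0.844), and neither passed the test. PFKP held 53.5 ± 0.452% of the phosphofructokinase counts per kilobase in control cells and 56.0 ± 0.934% in RSL3-treated cells, the largest share of the 3 in every library.

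In lower glycolysis, where ATP and NADH are gained, 5 of 6 genes fell (83.3%, beside 12.7% of all genes tested) and none rose. PKM, pyruvate kinase of non-hepatic tissues, had 76152, 76298 and 76092 normalized counts in the control and 62332, 62177 and 65619 in the RSL3 libraries. PGK1, phosphoglycerate kinase, had 21132, 21121 and 22206 in the control and 19182, 18907 and 20165 in the RSL3 libraries. For ENO1, the main enolase, the control values were 71421, 73282 and 71621 and the RSL3 values 66366, 66229 and 68662. Each RSL3 library was below each control library in all 3 genes, and RSL3 replicate 3 was the highest of its group in each. The log2 fold changes were −0.27 for PKM (SE 0.026, adjusted p = 1.24e-07), −0.15 for PGK1 (SE 0.031, adjusted p = 0.00123) and −0.10 for ENO1 (SE 0.025, adjusted p = 0.00369). PGAM1, phosphoglycerate mutase, had a log2 fold change of −0.10 (adjusted p = 0.0202). Without control replicate 1, control replicate 3, RSL3 replicate 1 or RSL3 replicate 2 its value was between −0.10 and −0.09 and missed the threshold, with adjusted p = 0.0811, 0.0603, 0.103 and 0.0991 in this order. ENO2, the neuronal enolase, did not pass the test (log2 fold change 0.07, adjusted p = 0.131), and its share of the enolase counts per kilobase was 9.45 ± 0.222% in the control and 10.5 ± 0.123% in the RSL3 group.

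GAPDH (ENSG00000111640, chromosome 12, 6534512 to 6538374, plus strand), glyceraldehyde 3-phosphate dehydrogenase and the reference gene of the study's quantitative PCR, was 1 of the 10 core enzymes called lower. It had 79895, 77646 and 79869 normalized counts in control replicates 1, 2 and 3 and 74393, 73584 and 75749 in the RSL3 replicates. The groups did not overlap, and the log2 fold change was −0.09 (SE 0.025, adjusted p = 0.0127 by edgeR). The call was lost without RSL3 replicate 1 (−0.08, adjusted p = 0.0640) and without RSL3 replicate 2 (−0.08, adjusted p = 0.107). GAPDH was the most abundant member per kilobase of exon, at 968 ± 15.8 CPM per kilobase in control and 913 ± 13.4 in RSL3-treated cells, and stood at rank 17 of all genes. Another gene, ENSG00000269968, covers 17.6% of its exon bases, and the 65 genes named as GAPDH pseudogenes together held at most 0.637% of its count in any library.

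GAPDH remained the most abundant of the core enzymes per kilobase in both groups. Its share of the counts per kilobase of the 18 core enzymes was 31.2%, 30.5% and 30.9% in the control and 31.2%, 31.2% and 30.9% in the RSL3 libraries, a difference of 0.26 percentage points (two-sided exact permutation test, p = 0.2). The difference was 0.0824 without control replicate 2 (exact permutation p = 0.4), and 0.472 with the length of the main transcript (exact permutation p = 0.1, the smallest possible). The 18 enzymes together took at most 1.33% of all counts in the control libraries and at most 1.24% in the RSL3 libraries, and each RSL3 library was below each control library. Within the 18, the mean share of PKM went from 8.30% to 7.39% and that of LDHB from 8.41% to 9.38%, while ENO1 stood at 12.9% in both groups. Set against GAPDH, the log2 fold changes shift upward, to 0.91 for HKDC1, 0.45 for SLC2A1 and 0.10 for HK1, and they remain below 0 for LDHA (−0.29) and PKM (−0.18).

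**Figure D3:**
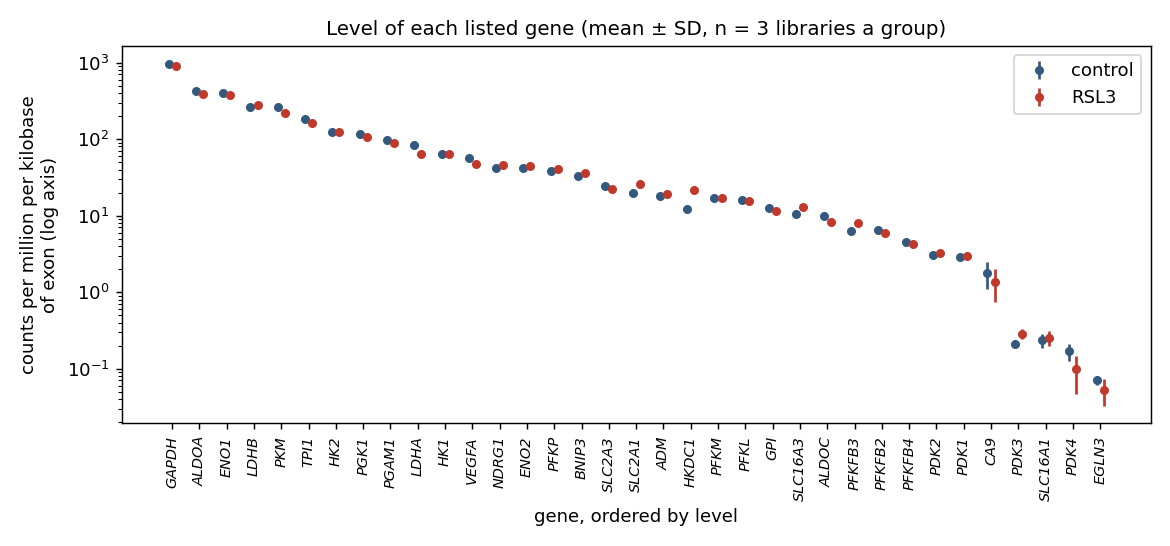
Level of each of the 35 genes in CPM per kilobase of annotated exon (vertical log axis), ordered by level, with points for the mean and bars for the SD of 3 control and 3 RSL3 libraries. GAPDH is at 968 in the control and EGLN3 at 0.0709, and most pairs of points lie close together on this scale, with HKDC1 and PDK3 the widest apart of the called genes.

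At the lactate step LDHA fell, whereas LDHB did not pass the test. LDHA (chromosome 11, 18394560 to 18408425, plus strand), the subunit associated with lactate production, had 16544, 16705 and 18211 normalized counts in the control and 12526, 12401 and 14612 in the RSL3 libraries. The groups did not overlap and replicate 3 was the highest in both, with a log2 fold change of −0.38 (SE 0.048, adjusted p = 3.71e-06), the largest fall among the called members. LDHB, the subunit associated with lactate use, had 26331 to 28438 normalized counts over the 6 libraries and did not pass the test (log2 fold change 0.06, adjusted p = 0.119). LDHA made up 23.3%, 23.2% and 25.5% of the counts per kilobase of the pair in the control libraries and 17.9%, 18.2% and 20.6% in the RSL3 libraries, and the log2 ratio of LDHA to LDHB counts went from −0.65 to −1.09 (two-sided exact permutation test, p = 0.1, the smallest possible).

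SLC16A3 (chromosome 17, 82217934 to 82261129, plus strand) encodes the lactate exporter MCT4 and had 3338, 3162 and 3551 normalized counts in the control and 3962, 3991 and 4121 in the RSL3 libraries. Every RSL3 value was above every control value, with a log2 fold change of 0.26 (SE 0.04, adjusted p = 3.38e-05). SLC16A1, which encodes the carrier MCT1, had 42.5 to 67.5 normalized counts and a log2 fold change of 0.12 (SE 0.25, adjusted p = 0.778), so that a change of the size seen in SLC16A3 was not detectable at this depth. SLC16A3 held 97.8% of the counts per kilobase of this pair in the control and 98.1% in the RSL3 group.

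The PFKFB enzymes make and remove fructose 2,6-bisphosphate, the activator of phosphofructokinase. PFKFB3 (chromosome 10, 6144934 to 6254644, plus strand), the isoform with the strongest kinase bias, had 1304, 1341 and 1285 normalized counts in the control and 1733, 1563 and 1693 in the RSL3 libraries. It rose without overlap, with a log2 fold change of 0.34 (SE 0.048, adjusted p = 1.5e-05). PFKFB2 and PFKFB4 did not pass the test, each with a log2 fold change of −0.10 (adjusted p = 0.0633 and 0.24). Their groups did not overlap either, as in 38.6% of all genes tested. The PFKFB4 groups came close, at 929 in control replicate 1 and 925 in RSL3 replicate 3. PFKFB3 held 36.3 ± 0.768% of the counts per kilobase of the 3 genes in the control and 43.7 ± 1.01% in the RSL3 group.

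Of the 4 pyruvate dehydrogenase kinases, which phosphorylate and inhibit pyruvate dehydrogenase, PDK3 was called and was low. PDK3 (chromosome X, 24465244 to 24550466, plus strand) had 134, 113 and 127 normalized counts in the control and 143, 185 and 184 in the RSL3 libraries. The groups did not overlap but came close, at 134 and 143, and the log2 fold change was 0.45 (SE 0.15, adjusted p = 0.0269). The call was lost without control replicate 2 (0.39, adjusted p = 0.0754), control replicate 3 (0.46, adjusted p = 0.0527), RSL3 replicate 2 (0.39, adjusted p = 0.117) or RSL3 replicate 3 (0.39, adjusted p = 0.0859). PDK1, a known HIF target, had a log2 fold change of 0.03 (SE 0.045, adjusted p = 0.664) and PDK2 of 0.07 (SE 0.073, adjusted p = 0.534). PDK4, which fasting and fatty acids induce in other tissues, had 5.99 to 31.4 normalized counts and a log2 fold change of −0.82 with an SE of 0.41 (adjusted p = 0.159), and SAMD14 covers 38.6% of the exon bases of PDK2.

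Of the 6 HIF targets outside glycolysis, 1 rose, 1 fell and 4 were not called, shares (16.7% each way) near the 12.9% and 12.7% of all genes tested. VEGFA (chromosome 6, 43770184 to 43786487, plus strand), the angiogenic growth factor, had 26720, 26898 and 28881 normalized counts in the control and 22326, 22889 and 25242 in the RSL3 libraries. It fell without overlap, with a log2 fold change of −0.23 (SE 0.039, adjusted p = 0.000133). NDRG1, a stress- and hypoxia-induced gene, had 16493, 16750 and 18173 in the control and 18247, 18124 and 19075 in the RSL3 libraries. Its groups overlapped, because control replicate 3 was above RSL3 replicate 2, and it rose by 0.11 on the log2 scale (SE 0.034, adjusted p = 0.0235). That call was lost without control replicate 1 (0.08, adjusted p = 0.116), control replicate 2 (0.10, adjusted p = 0.0802) or RSL3 replicate 3 (0.09, adjusted p = 0.0795).

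The remaining HIF targets are given although they were not called, and the by-library values of CA9 were added after they were seen. CA9, carbonic anhydrase 9 and a classic hypoxia marker, had 73.9, 77.5 and 142 normalized counts in the control and 58.6, 50.9 and 114 in the RSL3 libraries. Replicate 3 was the highest library of both groups, and the log2 fold change was −0.39 (SE 0.27, adjusted p = 0.34). It was −0.84 without RSL3 replicate 3 (adjusted p = 0.0261), −0.01 without control replicate 3 (adjusted p = 0.988) and −0.17 without RSL3 replicate 2 (adjusted p = 0.754), so single libraries decide the value, and ARHGEF39 covers 35.7% of the CA9 exon bases. BNIP3, which promotes mitophagy, had a log2 fold change of 0.09 (adjusted p = 0.0833), and ADM, the vasodilator adrenomedullin, of 0.11 (adjusted p = 0.208). Without control replicate 3 both were called, at 0.13 (adjusted p = 0.0133) and 0.21 (adjusted p = 0.00975). EGLN3, a prolyl hydroxylase that marks HIF for degradation, had 9.2 to 20.4 normalized counts, a log2 fold change of −0.42 and an SE of 0.41 (adjusted p = 0.508).

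The library numbered 3 was the highest of its group in both groups for 14 of the 35 members, including 4 of the 6 HIF targets (VEGFA, CA9, ADM and NDRG1) besides LDHA, PGK1 and ALDOA. The same held for 14.0% of all genes tested. With both of these libraries left out, 8 members were called higher and 12 lower (background 11.2% and 10.4% of genes tested), with BNIP3 and ADM gained and PDK3 lost. The cause of the higher values in these libraries was not tested, and the labels give no batch, day or passage for them.

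**Figure D4:**
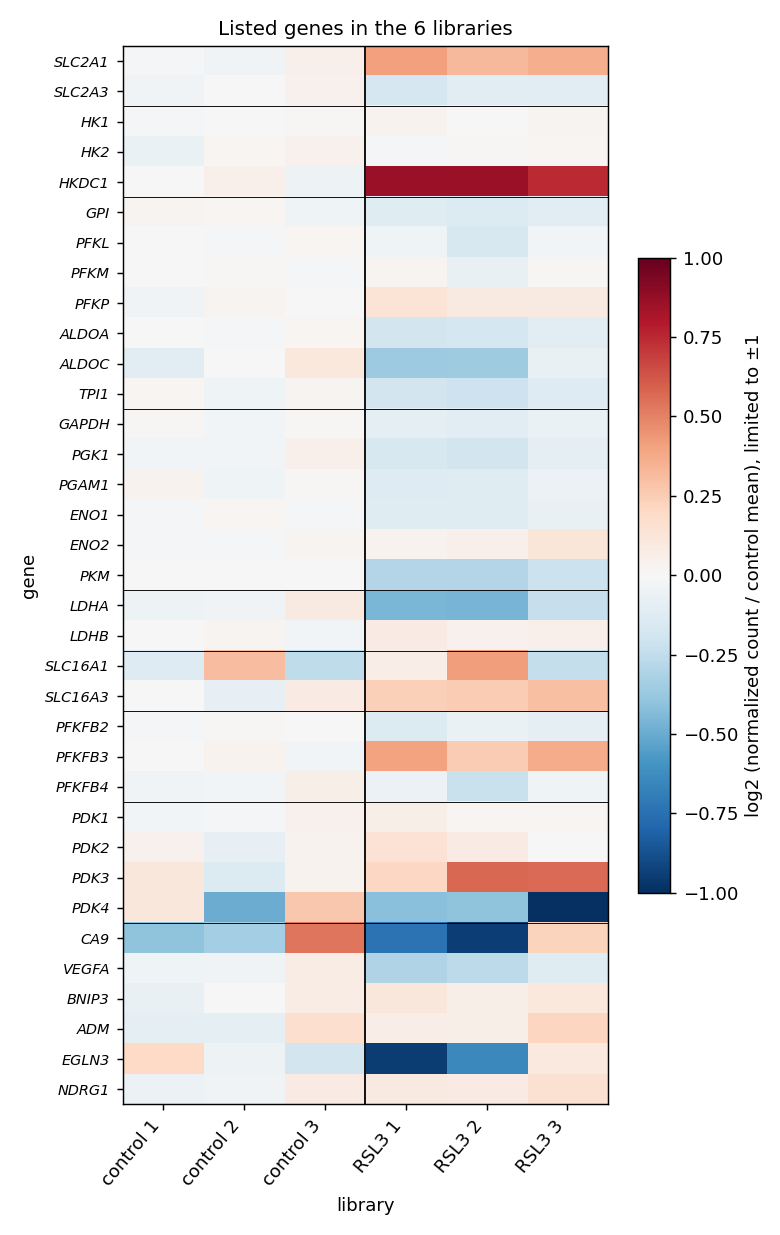
Log2 of each normalized count over the control mean of its gene (colour, limited to ±1) for the 35 genes in the 6 libraries, with genes in rows by role. HKDC1, SLC2A1, PFKFB3 and SLC16A3 are red in all 3 RSL3 libraries, LDHA, PKM and VEGFA are blue there and palest in RSL3 replicate 3, and CA9 is red in the library numbered 3 of both groups.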

How the data were processed

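Poly(A) RNA of U87MG cells was sequenced in read pairs from 3 control and 3 RSL3-treated samples, grouped by the treatment in the labels. After trimming with Trimmomatic (v0.36) and Fastp, the authors used HISAT2 for alignment to GRCh38.p4 and HTSeq-count (v0.6.1p1, unstranded, exons) for counting. The authors deposited whole-number read counts for each Ensembl gene identifier and applied no normalization to them. Their annotation release is not given in the sources used here, so exon lengths, coordinates and overlaps come from GENCODE v44 on GRCh38 and hold as far as both annotations share exons. Counting without strand cannot separate overlapping or antisense genes.

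Counts were tested in R (v4.3.3) with edgeR (v4.0.16): filterByExpr with a minimum count of 10, TMM scaling, the quasi-likelihood F test without covariates, and Benjamini-Hochberg adjustment over 16105 genes at 0.05. Adjusted p values in the text come from this test unless another tool is named. Fold changes are RSL3 against control, normalized counts are scaled to the mean library size, and levels between genes are CPM per kilobase of annotated exon. The HKDC1 and GAPDH shares and the log2 count ratios of gene pairs were compared by two-sided exact permutation over libraries (scipy v1.17.1). The ratio tests were not planned, and the other family shares were not tested. The labels do not say whether the 3 libraries of a group came from separate cultures, so p values measure the spread between these samples, which may be technical. A symbol was available for 56434 identifiers. Promoters are from RefSeq (GRCh38.p14). The members and lists were chosen with earlier results of these data known.

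By rule, by-library values are given for the hexokinases, GAPDH and up to 3 called genes with the smallest p in each role group, and up to 4 called genes with the largest change are named in each further list. The alternatives were DESeq2 size factors or total counts for scaling, no filter or at least 10 counts in every library, DESeq2 (v1.42.0) with 0, 1 or 2 surrogate variables (sva v3.50.0), the replicate number as a block, each library left out, a log2 fold change of at least 0.5, and canonical transcript lengths or undivided counts for shares. The edgeR fit, with and without the replicate block, and DESeq2 without surrogate variables were also run on simulated counts. The fits with surrogate variables were not.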

Additional observations from a re-analysis of the deposited data

How the results depend on the processing

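Under 15 alternatives, 11 of the 19 called members kept their call and direction in all of them (SLC2A1, HKDC1, ALDOA, TPI1, PGK1, ENO1, PKM, LDHA, SLC16A3, PFKFB3 and VEGFA), and 0 called members changed direction. Fewer alternatives gave a value for PDK4 (14) and EGLN3 (13). Of the members not called, HK2 (−0.03 to 0.03), PFKM (−0.03 to 0.02) and SLC16A1 (−0.06 to 0.29) took both signs. With a log2 fold change of at least 0.5 as a further threshold, 1 member was called higher and 0 lower. DESeq2 with 2 surrogate variables called 2268 genes in place of 4123 and 18 of the further pathway genes in place of 30, with 6 members higher and 9 lower (7.99% and 7.64% of genes tested), the calls of GPI (log2 fold change −0.12, adjusted p = 0.0756), ALDOC (−0.25, 0.11), PGAM1 (−0.10, 0.0857) and PDK3 (0.46, 0.165) being lost. The cause was not tested.

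With each library left out in turn, 3081 to 3924 genes, 5 to 8 members higher, 8 to 13 members lower and 20 to 29 further pathway genes were called. The difference in the HKDC1 share ranged from 4.05 to 4.50 percentage points and that in the GAPDH share from 0.0824 to 0.411. With other lengths the HKDC1 difference was 3.72 (canonical transcript) and 3.02 (undivided counts), and the GAPDH difference 0.472 and 0.335. Leaving out both libraries numbered 3 was chosen after seeing the data. Same-numbered libraries deviated together only weakly (r = 0.0222, 0.0273 and 0.0745 over genes). The labels do not say whether the numbers pair the samples, and correlations over all genes cannot decide it. With the replicate block 4633 genes, 9 members higher, 13 lower and 32 further genes were called, with LDHB, PFKFB2 and BNIP3 gained. In the reported fit these counts were 4123, 7, 12 and 30, so the block called more genes over all genes as well. Shares of all genes by direction are not given for the block or for the fits without a single library. Total counts as scaling also called PFKFB2. PDK4, EGLN3, SLC16A1, CA9 and PDK3 had the lowest counts of the members and standard errors of 0.15 or more on the log2 scale, and in CA9 the libraries numbered 3 also stood apart.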

Other observations

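Further genes of the same pathway were tested as 4 lists of 86 genes, of which 70 passed the filter on low counts, with 8 higher and 22 lower in RSL3-treated cells by edgeR's adjusted p (11.4% and 31.4%, beside 12.9% and 12.7% of all genes tested). Among 17 tested relatives of the glycolytic genes, 1 rose and 4 fell, which were the monocarboxylate carrier gene SLC16A7 (log2 fold change −0.33, adjusted p = 4.27e-05), the D-lactate dehydrogenase gene LDHD (−0.33, adjusted p = 0.0353) and the phosphoglucomutase genes PGM2 (−0.28, adjusted p = 0.0041) and PGM1 (−0.14, adjusted p = 0.00876). Of 12 genes of mitochondrial pyruvate entry and oxidation, 4 fell and 1 rose. Pyruvate carboxylase PC went from 1619 ± 60.2 to 1354 ± 92.2 normalized counts (mean ± SD, n = 3; log2 fold change −0.26, adjusted p = 0.0008), and MPC2, a subunit of the mitochondrial pyruvate carrier, had a log2 fold change of −0.22 (adjusted p = 0.00133). PDHA1, a subunit of pyruvate dehydrogenase, had −0.22 (adjusted p = 0.000256), while PDP2, a phosphatase that reactivates the complex, rose by 0.18 (adjusted p = 0.00313). Other genes cover 21.8% of the MPC2 and 19.3% of the PDHA1 exon bases.

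Of 16 regulators of HIF, 2 rose (12.5%) and 5 fell (31.2%), beside 12.9% and 12.7% of all genes tested. CITED2, which competes with HIF for its coactivators, fell from 1638 ± 234 to 1260 ± 107 normalized counts (log2 fold change −0.38, adjusted p = 0.000674), RBX1 had a log2 fold change of −0.20 (adjusted p = 0.00869), ARNT, the shared HIF partner, of −0.19 (adjusted p = 0.0137; groups overlapped), and the coactivator CREBBP of 0.17 (adjusted p = 0.00484). HIF1A and EPAS1, named after their values were seen, encode the oxygen-regulated HIF subunits, which are controlled mainly as proteins. HIF1A had 10606 ± 309 and 10757 ± 288 normalized counts (log2 fold change 0.02, adjusted p = 0.707), and EPAS1 had 36508 ± 554 and 34144 ± 399 (log2 fold change −0.10, adjusted p = 0.00828). Of 25 further HIF targets tested, 4 rose (16.0%) and 9 fell (36.0%), beside 12.9% and 12.7% of all genes tested. CA12, carbonic anhydrase 12, fell from 12583 ± 851 to 8068 ± 940 normalized counts (log2 fold change −0.64, adjusted p = 2.63e-08), and FAM162A had a log2 fold change of −0.31 (adjusted p = 0.00636). STC2, the secreted stanniocalcin 2, rose from 22027 ± 1280 to 31305 ± 1590 (log2 fold change 0.51, adjusted p = 3.4e-09), and LOX, lysyl oxidase, had a log2 fold change of 0.44 (adjusted p = 2.06e-08). The library numbered 3 was the highest of both groups in 11 of these 25 genes, and in 14.0% of all genes tested.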
